A study of Ursus arctos with 12 samples.

Results

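The lipoprotein lipase system of brown bear (Ursus arctos) muscle was described from 7 transcripts. These were LPL, ANGPTL4, LMF1, LMF2, GPIHBP1, VLDLR and LRP1, among the 30249 genes of the count table. They were chosen by name from that table, with winter-against-summer differences of these data already known, so their season differences are given below as a description without a test. All 7 passed the filter on low counts, at least 30 reads summed over the 12 libraries, which 17290 genes passed. The libraries came from 6 free-ranging bears in Sweden, 2 to 3 years old, numbered 1305, 1316, 1317, 1509, 1511 and 1512, for which the labels name no genetic change and no treatment. The vastus lateralis, a muscle of the thigh, was biopsied in each animal during hibernation in February (called winter) and during the active period in June (called summer), under anaesthesia both times. A winter library thus came from a fasting and inactive animal and a summer library from a feeding one, and season, feeding and activity cannot be told apart in this design.

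Lipoprotein lipase (LPL) hydrolyses the triglycerides of circulating lipoproteins at the capillary wall and releases fatty acids that muscle burns or adipose tissue stores. The enzyme is made by parenchymal cells such as muscle fibres and adipocytes, folds in the endoplasmic reticulum with the lipase maturation factor LMF1, and is carried to the capillary lumen by the endothelial protein GPIHBP1. ANGPTL4, a secreted angiopoietin-like protein induced by fasting and by fatty acids through PPAR receptors, inactivates LPL by unfolding it. VLDLR and LRP1 are related cell surface receptors that bind lipoproteins, remnants and LPL itself. Since LPL activity is set largely after translation, a transcript level is not a measure of activity, and neither protein nor activity was measured in these files.

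Depth ran from 16742406 to 32140160 counted reads per library. Levels are given as CPM, the reads of a gene brought to a common library size with edgeR's TMM factors, and fold changes as log2 of winter over summer. The median log2 fold change over all genes tested was −0.00. Of these genes, 3386 (19.6%) were called higher in winter and 3445 (19.9%) were called lower. A call is an adjusted p under 0.05 in the quasi-likelihood test of edgeR, adjusted over all genes tested after Benjamini and Hochberg, and every adjusted p of a gene below comes from it. Unless an alternative is named, the fit had season as its only term and did not use the pairing of libraries by bear. The tissue label was checked on myofibre markers, 12 of which were found under their symbols: their summed level ran from 128018 to 210082 CPM in summer and from 136313 to 176810 in winter, led by CKM and TTN. Some libraries stood apart from the rest of their season. The winter library of bear 1509 scored −98.6 on the second principal component of all genes, which held 14.6% of the variance, where every other winter library had a score between 6.35 and 23.1. ADIPOQ, which encodes the adipocyte hormone adiponectin, was at 348 CPM in the summer library of bear 1316 against 13.1 to 40.1 in the other summer libraries, and at 148 CPM in the winter library of bear 1511 against 5.67 to 41.4 in the other winter libraries. Fold changes of the 7 transcripts that moved without these libraries are given both ways.

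LPL was lower in the winter library of every bear. In bulk tissue, fewer cells of a type and less RNA per cell cannot be told apart. Its summer levels were 474 CPM in bear 1305, 615 in bear 1316, 438 in bear 1317, 300 in bear 1509, 219 in bear 1511 and 228 in bear 1512. The winter levels, in the same order of bears, were 105, 85.3, 91.7, 149, 118 and 111 CPM. The seasons did not overlap, since the highest winter library, that of bear 1509, lay under the lowest summer library, that of bear 1511. On the log2 scale LPL was 8.46 ± 0.61 in summer and 6.76 ± 0.29 in winter (mean ± SD, n = 6 bears). The fitted log2 fold change was −1.78 (SE 0.25), a level 3.44-fold higher in summer. At 1628 to 13017 reads per library, counting error was small beside the spread between bears. The bears differed in size of the change rather than in its direction: the summer level was 4.51-fold, 7.21-fold and 4.77-fold the winter level in bears 1305, 1316 and 1317, and 2.01-fold, 1.86-fold and 2.05-fold in bears 1509, 1511 and 1512. The summer levels spanned a 2.81-fold range and the winter levels a 1.75-fold range. Without the summer library of bear 1316 and the winter library of bear 1511, the log2 fold change stayed between the extremes of the alternatives, which were −1.94 without bear 1509 and −1.52 without bear 1316.

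ANGPTL4 went the other way in every bear and had the widest relative difference of the 7 transcripts. Its reads were few in summer: 9 in bear 1305, 88 in bear 1316, 32 in bear 1317, 35 in bear 1509, 18 in bear 1511 and 8 in bear 1512. In winter the same bears had 279, 164, 190, 224, 379 and 345 reads. Bear 1316 thus had both the most ANGPTL4 reads in summer and the fewest in winter. As levels, the summer libraries held 0.328, 4.2, 1.39, 1.54, 0.718 and 0.313 CPM in the same order, and the winter libraries 11.4, 6.89, 10.7, 12.4, 22.8 and 11.2 CPM. The seasons did not overlap. The log2 level was 0.08 ± 1.31 in summer and 3.57 ± 0.55 in winter (mean ± SD, n = 6 bears), so the bears were more alike in winter. A log2 fold change of 3.17 (SE 0.53) was fitted, which is 9.0-fold and the rank of 219 from the top among the 17290 genes tested. Within bears the winter level was 34.7-fold the summer level in bear 1305, 31.7-fold in bear 1511 and 35.9-fold in bear 1512, but 1.64-fold in bear 1316 (exact counting interval 1.26 to 2.15), with bears 1317 and 1509 between them at 7.70-fold and 8.04-fold. Because the summer counts were so low, the 3 widest ratios are loosely set: the exact counting interval of bear 1512 ran from 18.0 to 83.8 and that of bear 1305 from 18.0 to 76.7. These intervals cover counting error alone. The log2 fold change was 4.01 without bear 1316, 2.78 without bear 1511 and 3.63 without the summer library of bear 1316 and the winter library of bear 1511.

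**Figure D1:**
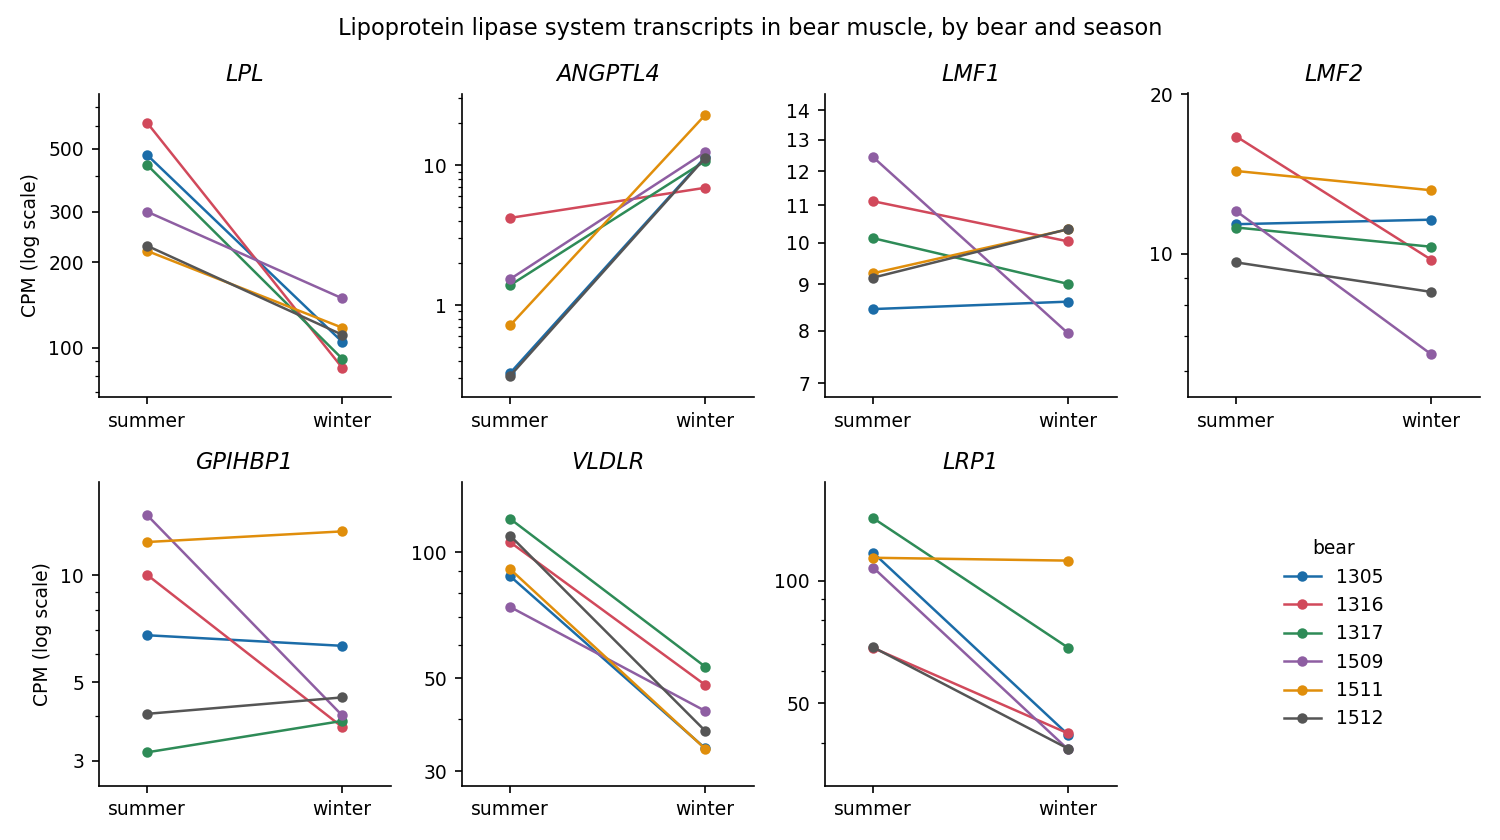
Levels of the 7 transcripts in CPM (log scale, a separate range in each panel) in the summer and winter library of each of 6 bears, 1 colour and line per bear. The LPL and VLDLR lines all go down and the ANGPTL4 lines all go up, with the summer point of bear 1316 highest for both LPL (615 CPM) and ANGPTL4 (4.2 CPM). LMF1 lines cross, and the LRP1 line of bear 1511 is nearly level.

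The balance of both transcripts was also expressed as LPL reads per ANGPTL4 read within a library, a ratio in which library size and scaling cancel. Gene length was not corrected for, so the ratio says how the balance differed between libraries and not how many molecules there were of each. In summer it was 1446 in bear 1305, 146 in bear 1316, 315 in bear 1317, 195 in bear 1509, 304 in bear 1511 and 728 in bear 1512. The winter ratios were 9.23, 12.4, 8.57, 12.1, 5.16 and 9.90 in the same order. The highest winter ratio and the lowest summer ratio were both those of bear 1316, and even these lay far apart.

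**Figure D2:**
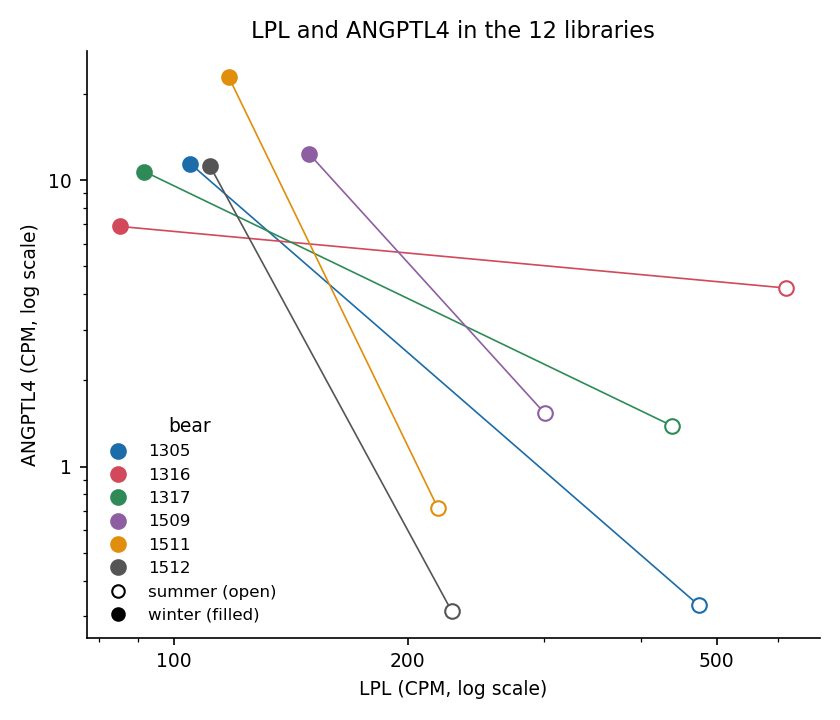
ANGPTL4 against LPL in the 12 libraries, both in CPM on log axes. Open circles are summer, filled circles winter, and a line joins the libraries of a bear. Every line runs from the lower right, with LPL at 219 to 615 CPM, to the upper left, with ANGPTL4 at 6.89 to 22.8 CPM, and that of bear 1316 is the flattest.

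The lipase maturation factors differed little between the seasons. LMF1, an endoplasmic reticulum protein that LPL needs to reach its active dimer, had 8.45 CPM in the lowest summer library, a median of 9.69 and 12.4 in the highest, against 7.95, 9.52 and 10.4 in winter. It was higher in winter in 3 bears and lower in 3, and its log2 fold change of −0.10 (SE 0.13) became 0.02 without bear 1509. LMF2, a related protein of the same family, ran from 9.63 to 16.6 CPM in summer (median 11.7) and from 6.46 to 13.2 in winter (median 10.02). Lower in 5 of 6 bears, it had a log2 fold change of −0.33 (SE 0.18), and its seasons overlapped. The LMF2 fold change was −0.23 without bear 1316 and −0.42 without bear 1305.

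GPIHBP1, which binds LPL and takes it across the endothelial cell, differed more between bears than between seasons. Its summer levels were 6.78, 10.02, 3.17, 14.8, 12.4 and 4.07 CPM in bears 1305, 1316, 1317, 1509, 1511 and 1512, and its winter levels 6.33, 3.74, 3.89, 4.03, 13.3 and 4.53 CPM. The winter level was clearly lower in bears 1316 and 1509, while bear 1511 was high in both seasons and the other 3 bears kept within 1.23-fold. The log2 fold change was −0.52 (SE 0.40). It was −0.19 without bear 1509 and −0.87 without the summer library of bear 1316 and the winter library of bear 1511. At 69 to 336 reads per library, GPIHBP1 was a sparsely counted transcript.

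Of the receptors, VLDLR was lower in winter in all 6 bears. This receptor binds triglyceride-rich lipoproteins in muscle, heart and fat. Its summer levels were 87.5, 105, 120, 73.9, 90.9 and 109 CPM in the order of bears used above, and its winter levels 34.1, 48.3, 53.3, 41.8, 34.0 and 37.5 CPM. The seasons did not overlap, and the summer level was above the winter level by a like factor in each bear, between 1.77-fold in bear 1509 and 2.91-fold in bear 1512. Its log2 fold change of −1.24 (SE 0.14) had the smallest standard error relative to its size among the 7 transcripts, and it lay between −1.32 and −1.16 under every alternative tried.

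LRP1, a large endocytic receptor for remnants, proteases and matrix proteins that fibroblasts and macrophages express strongly, was less even. The summer levels were 117, 68.4, 142, 108, 114 and 68.6 CPM and the winter levels 41.9, 42.2, 68.5, 38.5, 112 and 38.7 CPM. Bear 1511 barely differed between seasons, and its winter library lay among the summer libraries, so the seasons overlapped. The log2 fold change was −0.86 (SE 0.28). It was −0.74 without bear 1509, and −1.26 without the summer library of bear 1316 and the winter library of bear 1511.

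In the fit over all genes, 1 of the 7 transcripts (ANGPTL4) was called higher and 3 of the 7 (LPL, VLDLR and LRP1) were called lower in winter, where 19.6% of all genes were called higher and 19.9% lower. LRP1 was no longer called without bear 1305, 1317 or 1509, which left 2 of the 7 lower. As the 7 were chosen on this contrast, nothing is read from these counts or from the loss of a call.

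**Figure D3:**
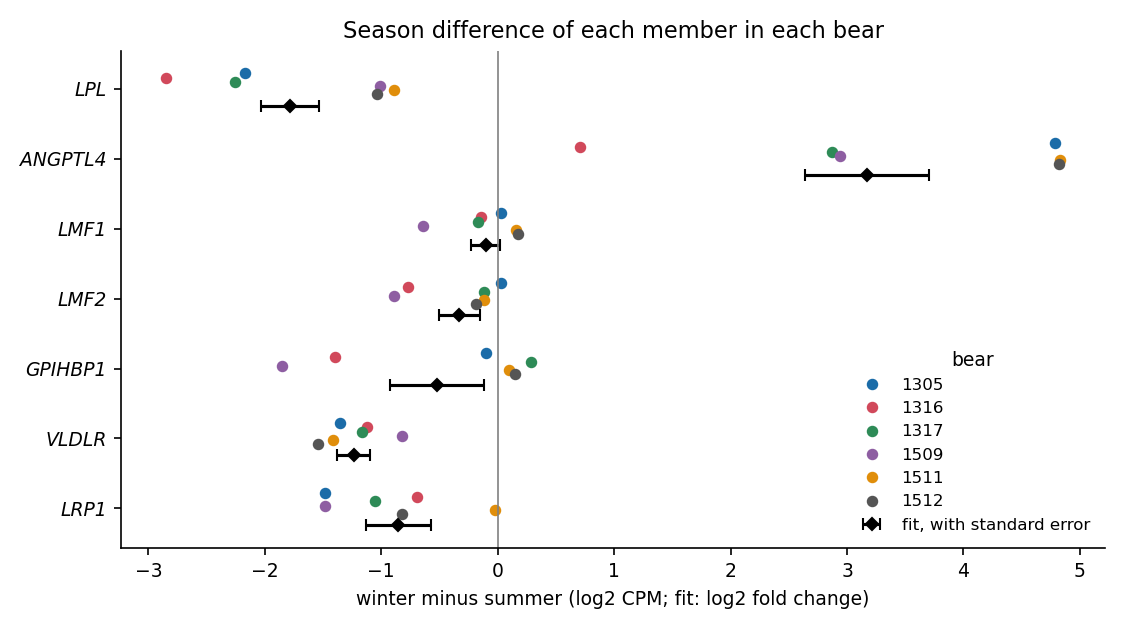
Winter minus summer difference of each of the 7 transcripts in each of 6 bears (coloured points, log2 CPM), with the fitted log2 fold change and its standard error (black diamond and bar). LPL, VLDLR and LRP1 points all lie left of 0 and ANGPTL4 points all right of it, while LMF1 and GPIHBP1 have 3 bears on each side. The LPL points of bears 1305, 1316 and 1317 lie between −2.85 and −2.17, and those of the other bears between −1.03 and −0.89.

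Variation among bears of a single season was not used to choose the transcripts, and the relation of LPL with each of the other 6 was tested over the 6 bears of each season by an exact permutation test, two-sided, on log2 CPM. None of the 12 relations had an adjusted p below 0.05 in this exact permutation test, and the number with an unadjusted p below 0.05 for Pearson's r was 0. Over these relations r ran from −0.503 to 0.563, and the lowest adjusted p was 0.861 (exact permutation). Leaving out the 2 bears farthest from the median of LPL, 1316 and 1511 in summer and 1316 and 1509 in winter, moved several of them widely. Those bears had the highest and lowest LPL of the season, so the second r rests on fewer bears and a narrower range of LPL. Thus r depended on which bears were included, and these moves were not tested. For LRP1 in summer r went from 0.00309 to 0.886, and for VLDLR in winter from −0.481 to −0.882. In winter the sign turned for LMF1, from −0.452 to 0.710, for LMF2, from −0.503 to 0.254, and for LRP1, from −0.0679 to 0.180. It also turned for LMF1 in summer, from 0.173 to −0.260. In winter r went from 0.236 to 0.752 for GPIHBP1. LPL and ANGPTL4, opposed between seasons, had a positive r within each season. In summer r was 0.551 (exact permutation p = 0.25, Spearman's rho 0.486 with p = 0.356), and it was 0.159 without those 2 bears. In winter r was 0.563 (exact permutation p = 0.197), rho was 0.886 (exact permutation p = 0.0333, adjusted p = 0.4), and r was 0.702 without the 2 bears named for winter. With 6 bears the smallest p this test can give is 0.00278.

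Muscle biopsies hold several cell types. Marker lists were therefore set beside the 7 transcripts, and all but the myofibre sum had lower sums in winter in 6 of 6 bears. The adipocyte list had a summed level of 1565 to 2552 CPM in summer, with a median of 1689, and of 586 to 1378 CPM in winter, with a median of 947, with 1 of 13 tested genes higher and 5 lower. The gene that was higher was LEP, leptin, on 52 reads in all, and it was not called in the fit with a replicate block. GPD1 and FABP4 made up most of this sum. GPD1 is also a muscle enzyme and FABP4 is also a protein of capillaries, so the sum is not specific to fat. ADIPOQ itself had a log2 fold change of −0.86 (SE 0.86, adjusted p = 0.447). The lipid droplet genes PLIN1 and CIDEC had −0.93 (SE 0.89, adjusted p = 0.428) and −2.43 (SE 0.95, adjusted p = 0.0553). Endothelial markers, led by VWF and PECAM1, summed to 788 to 1093 CPM in summer (median 969) and 570 to 668 in winter (median 614), with 2 of 13 genes higher and 7 lower. VWF was lower at −1.28 (SE 0.15), whereas CLDN5 (0.81, SE 0.27) and ERG (0.46, SE 0.11) were higher. TEK, ROBO4, ESAM and CLEC14A did not pass, so the sum does not stand for every gene of the list. Fibroblast markers other than collagens summed to 1001 to 1923 CPM in summer (median 1560) and 324 to 1530 in winter (median 594), and 8 of the 11 tested fibroblast genes were lower and 0 higher. COL3A1 and COL1A2, the most abundant of the list, had log2 fold changes of −4.17 and −3.74. Macrophage markers, led by MRC1 and CSF1R, summed to 107 to 162 CPM in summer and 44.9 to 86.6 in winter, with 7 of 11 lower and 0 higher. No marker was at 0 reads in all libraries, although ADRB3, EGFL7, TCF21 and MARCO had fewer than 30 in total and were not tested. Of the 12 myofibre genes, 2 were higher and 3 lower. As shares of the tested genes, 38.5% of adipocyte, 53.8% of endothelial, 72.7% of fibroblast, 63.6% of macrophage and 25% of myofibre markers were lower, against 19.9% of all genes. Those higher were 7.69%, 15.4%, 0%, 0% and 16.7% in the same order, against 19.6%.

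**Figure D4:**
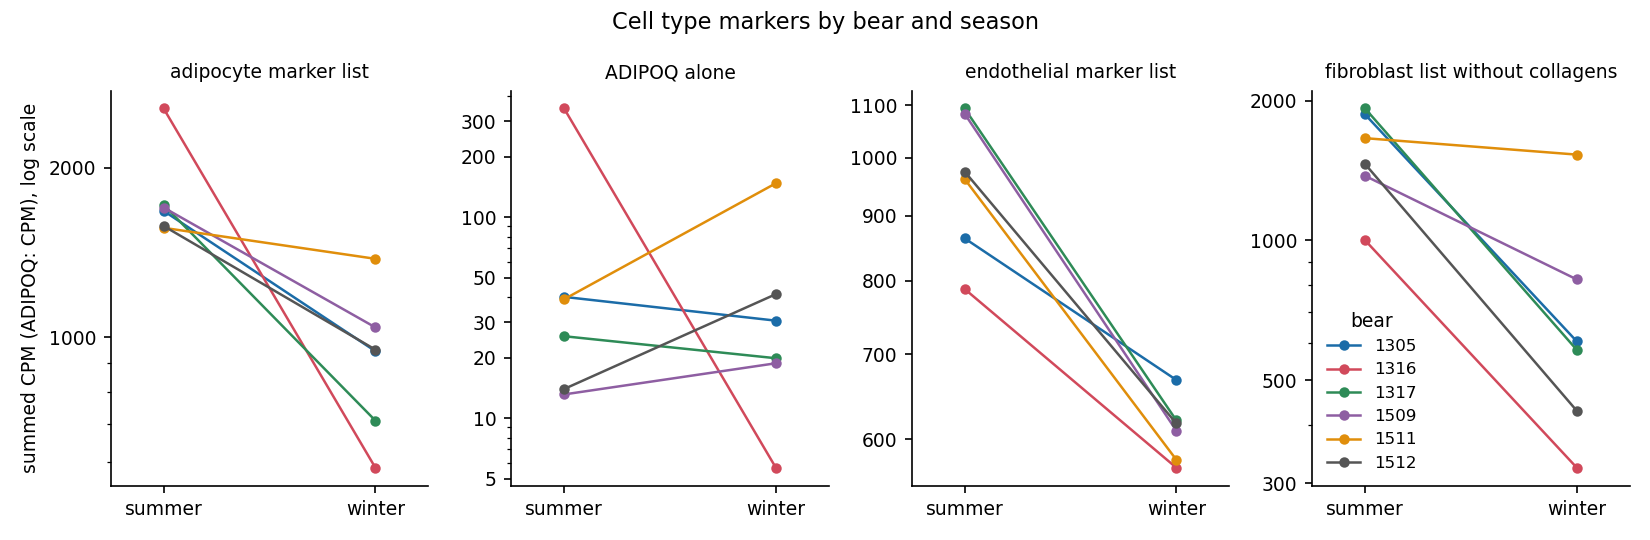
Summed CPM of the adipocyte list, CPM of ADIPOQ, and summed CPM of the endothelial list and of the fibroblast list without collagens (log scales) in both libraries of each bear. The 3 sums go down in every bear, whereas ADIPOQ goes up in bears 1509, 1511 and 1512, with its highest points at 348 CPM (bear 1316, summer) and 148 CPM (bear 1511, winter).

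The libraries with the most ADIPOQ of their season were also the highest for some of the 7 transcripts. The summer library of bear 1316 had the most LPL, ANGPTL4 and LMF2 of the summer libraries. Its LRP1 (68.4 CPM) was about level with that of bear 1512 (68.6 CPM). The winter library of bear 1511 had the most ANGPTL4, GPIHBP1, LRP1 and LMF2 of the winter libraries. Its VLDLR (34.0 CPM) was about level with that of bear 1305 (34.1 CPM), and its LPL (118 CPM) lay inside the winter range of 85.3 to 149 CPM. GPIHBP1 was high in bear 1511 in summer too (12.4 CPM). The part of the marker cells in these levels was not tested. Measured against the marker sums, LPL was 14.0 to 28.3% of the adipocyte sum in summer and 8.54 to 14.6% in winter, lower in 6 of 6 bears with a slight overlap. Against the myofibre sum it was 0.125 to 0.342% in summer and 0.0482 to 0.110% in winter, without overlap. ANGPTL4 was 0.0195 to 0.164% of the adipocyte sum in summer and 1.18 to 1.65% in winter, again without overlap. GPIHBP1 was 0.290 to 1.36% of the endothelial sum in summer (median 1.03%) and 0.626 to 2.30% in winter (median 0.697%), and lower in 2 of 6 bears only. The highest winter share was that of bear 1511, and the next was 0.947% in bear 1305. VLDLR was 6.83 to 13.4% of the endothelial sum in summer and 5.10 to 8.58% in winter, lower in 5 of 6 bears. LRP1 was 4.70 to 7.82% of the fibroblast sum without collagens in summer and 4.67 to 13.0% in winter, lower in 1 of 6 bears, but 7.03 to 13.5% of the endothelial sum in summer (median 10.9%) and 6.26 to 19.4% in winter (median 6.86%), lower in 5 of 6 bears.

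Around the 7 transcripts, 6 lists of genes were followed: partners of LPL folding and surface binding, relatives of ANGPTL4 and apolipoproteins, other lipases, other receptors, transcription regulators, and genes that take up the released fatty acids. The lists held 117 genes of the count table, of which 106 were tested, none of them among the 7. They were written with earlier results of these data known, so their shares beside those of all genes are a description. In winter 12 (11.3%) were higher and 38 (35.8%) lower, against 19.6% and 19.9% of all genes, with a median log2 fold change of −0.24 beside −0.00 over all genes. Without the summer library of bear 1316 and the winter library of bear 1511 the counts were 12 higher and 39 lower, and without bear 1509 they were 11 and 36. The number higher was 7 without bear 1305. The sums of the adipocyte, endothelial, fibroblast and macrophage markers were also lower in winter in 6 of 6 bears, and their part in these counts was not tested. FABP4 and LIPE stood both in the adipocyte list and in these 6 lists. ADIPOQ was higher in winter in bears 1509, 1511 and 1512, and PLIN1 in these and in bear 1317. CIDEC was higher in bears 1511 and 1512, and each of these genes was lower in the remaining bears.

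**Figure D5:**
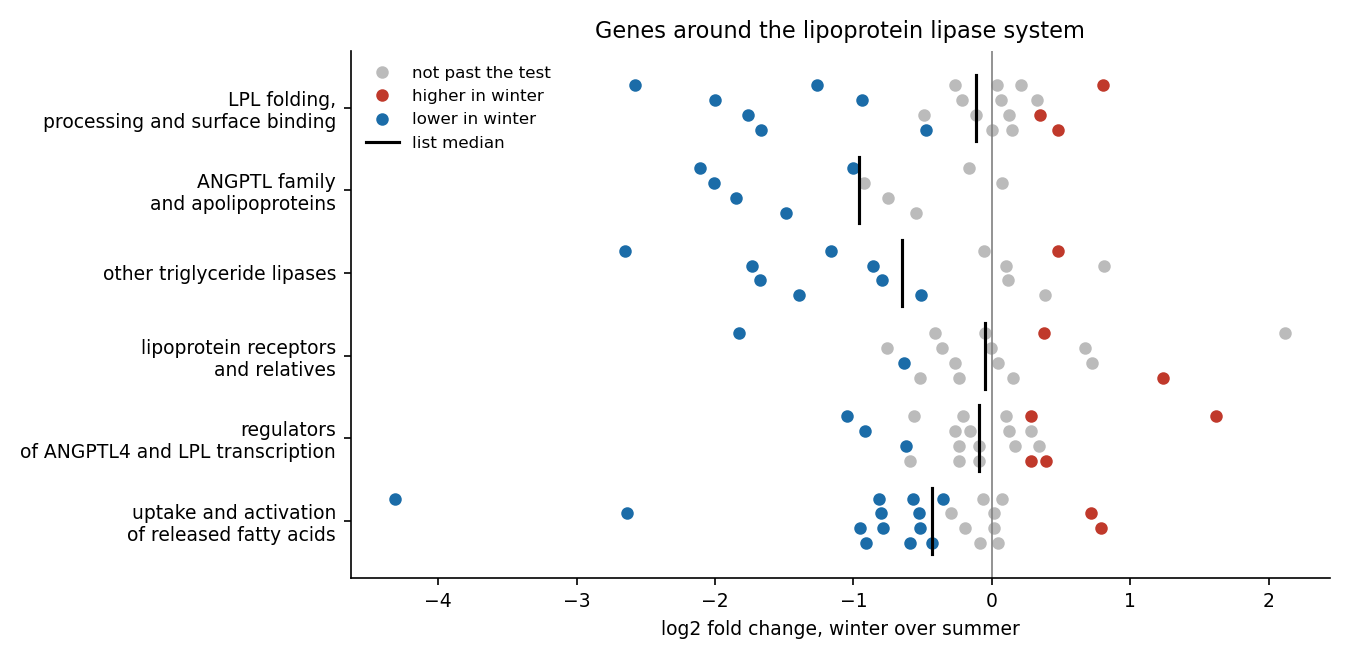
Log2 fold change, winter over summer, of each tested gene of the 6 lists (points), with red for genes higher and blue for genes lower at an adjusted p below 0.05, grey for the others, and a black bar at each list's median. Blue points outnumber red most clearly for fatty acid uptake (13 against 2) and other lipases (8 against 1), and the receptor list is mostly grey.

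Among the 21 genes of LPL folding, processing and surface binding, 3 (14.3%) were higher and 7 (33.3%) lower, against 19.6% and 19.9% of all genes. Their median log2 fold change was −0.11. The 3 that were higher all act in the endoplasmic reticulum. SEL1L, which LPL needs to leave that compartment, rose from 56.4 ± 3.51 to 98.3 ± 17.3 CPM (mean ± SD, n = 6), by a log2 fold change of 0.80 (SE 0.12, adjusted p = 0.000198 by edgeR), and in all 6 bears. P4HB, a protein disulphide isomerase, rose by 0.48 (SE 0.11), in 5 of 6 bears. The lectin chaperone CANX rose by 0.35 (SE 0.11), a call lost in 4 alternatives, with adjusted p up to 0.122 by edgeR. The chaperone CALR and the isomerase PDIA4 of the same compartment moved the opposite way, with log2 fold changes of −0.47 (SE 0.09) and −0.94 (SE 0.13). Of the 6 heparan sulphate proteoglycans, a class to which LPL binds, 3 were lower. SDC1, a syndecan of the cell surface, had a log2 fold change of −2.58 (SE 0.53, adjusted p = 0.00174 by edgeR), on 2 to 93 reads per library. HSPG2, perlecan of the basement membrane, fell from 181 ± 71.8 to 45.4 ± 20.6 CPM, by 2.00 on the log2 scale (SE 0.31). SDC3 was lower too, at −1.26 (SE 0.25), whereas SDC2, SDC4 and GPC1 did not pass the test (−0.11, 0.33 and −0.49). Of the proprotein convertases, proteases that can cleave LPL or its inhibitors, PCSK5 and PCSK6 were lower at −1.76 (SE 0.26) and −1.67 (SE 0.25), each in 6 of 6 bears, and FURIN and PCSK7 did not pass (0.15 and 0.07).

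Relatives of ANGPTL4 did not share its direction. Of the 17 ANGPTL and apolipoprotein genes, 10 were tested. Of these, 5 (50%) were lower and 0 (0%) higher in edgeR's test, against 19.9% and 19.6% of all genes. At an unadjusted p below 0.05 in that test, 0 were higher too. ANGPTL1 went from 18.8 ± 5.29 to 4.41 ± 1.9 CPM (log2 fold change −2.11, SE 0.30, adjusted p = 0.000148 by edgeR) and ANGPTL2 from 37.4 ± 14.8 to 10.4 ± 2.15 CPM (−1.85, SE 0.24, adjusted p = 7.89e-05), both in 6 of 6 bears. ANGPTL5, ANGPTL6 and ANGPTL7 did not pass, with log2 fold changes of −0.55 (SE 1.19), −0.16 (SE 0.42) and 0.07 (SE 0.95). ANGPTL8, an inhibitor of LPL action in the fed state that comes mainly from liver and fat, was among the genes not tested for low counts, as was APOC2, the activator of LPL. APOA1, the main protein of high-density lipoprotein, was lower, with a log2 fold change of −2.01 (SE 0.24), and so was APOD, a lipid carrier of many tissues, at −1.49 (SE 0.34). APOM was also lower (−1.0, SE 0.29), a call that was lost when bear 1305 was left out (adjusted p = 0.0517) and when bear 1316 was (0.0583). APOE, at 1.3 to 52.8 CPM in summer, did not pass (−0.92, SE 0.80).

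Other lipases were lower more often than higher, with 8 of 14 tested genes (57.1%) lower and 1 (7.14%) higher. Over all genes 19.9% were lower and 19.6% higher. The median log2 fold change of the list was −0.65. The relatives of LPL in the same enzyme family were barely detected. LIPC, hepatic lipase, had 0 to 35 reads per library and a log2 fold change of −2.65 (SE 0.58, adjusted p = 0.00265 by edgeR), and LIPG, endothelial lipase, 2 to 32 reads and −1.73 (SE 0.47). CES1, a carboxylesterase that hydrolyses neutral lipid, was well counted and fell from 289 ± 86.2 to 110 ± 36.5 CPM (−1.39, SE 0.24). DAGLA, a diacylglycerol lipase, was lower at −1.67 (SE 0.34), whereas its paralogue DAGLB was the member that was higher (0.48, SE 0.12). Inside the cell, hormone-sensitive lipase LIPE (−1.16, SE 0.30), lysosomal acid lipase LIPA (−0.79, SE 0.21) and ABHD5 (−0.51, SE 0.13), the coactivator of adipose triglyceride lipase, were lower. ABHD6 was lower at −0.86 (SE 0.32, adjusted p = 0.0433 by edgeR), a call lost in 5 alternatives, with adjusted p up to 0.172. PNPLA2, adipose triglyceride lipase, and MGLL, monoglyceride lipase, did not pass the test (0.12, SE 0.29, and −0.06, SE 0.16).

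Of 17 tested relatives of VLDLR and LRP1, other lipoprotein receptors and adaptors, 2 (11.8%) were higher and 2 (11.8%) lower, where 19.6% and 19.9% of all genes were, with a median log2 fold change of −0.05. STAB1, a scavenger receptor of endothelium and macrophages, was lower at −1.82 (SE 0.30, adjusted p = 0.000345 by edgeR) in 6 of 6 bears. LRP8, the closest relative of VLDLR, was higher at 1.24 (SE 0.27) in 6 of 6 bears, although on only 8 to 49 reads per library. LRP6, a Wnt co-receptor, was lower at −0.63 (SE 0.17) in 5 of 6 bears, and just missed the limit without bear 1317. LRP12 was higher at 0.38 (SE 0.14, adjusted p = 0.0398), a call lost in 8 alternatives. In the fit with a replicate block of the bear, LRP2 (0.68, adjusted p = 0.0495) and LRP11 (0.68, adjusted p = 0.00586) were called as well, which made 4 receptors higher and 2 lower.

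Of 21 tested regulators of ANGPTL4 and LPL transcription, 4 (19.0%) were higher and 3 (14.3%) lower, close to the 19.6% and 19.9% of all genes, with a median log2 fold change of −0.09. PPARA and PPARD, the fatty acid receptors that induce ANGPTL4 in muscle, were both lower: PPARA went from 126 ± 28.8 to 61.0 ± 13.9 CPM (−1.05, SE 0.18, adjusted p = 0.000482 by edgeR) and PPARD from 12.2 ± 2.52 to 6.47 ± 2.50 CPM (−0.92, SE 0.22, adjusted p = 0.00508), each in 6 of 6 bears. PPARG did not pass (−0.59, SE 0.33). EPAS1, a hypoxia-inducible factor of endothelium, was lower at −0.62 (SE 0.11), and HIF1A did not pass (−0.16, SE 0.10). SREBF1, a regulator of lipid synthesis, was higher at 1.62 (SE 0.45, adjusted p = 0.0114), in 5 of 6 bears and not in bear 1509. NR3C1, the glucocorticoid receptor, rose by 0.39 (SE 0.12), RXRB by 0.28 (SE 0.09) and ARNT by 0.28 (SE 0.09). These 3 calls were each lost with library totals in place of TMM and without bear 1305, where the list had 1 gene higher.

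Genes that take up and activate the released fatty acids were lower in 13 of 23 cases (56.5%) and higher in 2 (8.70%). Over all genes 19.9% were lower and 19.6% higher. The median log2 fold change of the list was −0.43. DGAT2, which makes triglyceride, had the widest log2 fold change, −4.31 (SE 1.03, adjusted p = 0.00468 by edgeR), but this rested in part on the ADIPOQ-rich summer library of bear 1316, at 254 CPM: it was −1.92 without bear 1316 and −2.44 without that library and the winter library of bear 1511. MFSD2A, a lipid transporter, was lower at −2.64 (SE 0.62) on 0 to 7 reads per library. FABP4, the fatty acid-binding protein of fat and capillaries, was lower at −0.95 (SE 0.24) in 6 of 6 bears, and at −0.61 without bear 1316. ACSL1, the main acyl-CoA synthetase of muscle and fat, fell from 838 ± 165 to 445 ± 115 CPM (−0.91, SE 0.18), and ACSL4, which prefers arachidonic acid, rose from 120 ± 13.6 to 198 ± 48.3 CPM (0.72, SE 0.15). The caveolar genes CAV1 (−0.80, SE 0.13), CAV2 (−0.35, SE 0.10) and CAVIN1 (−0.52, SE 0.12) were lower, as was VEGFB (−0.78, SE 0.17), a growth factor of muscle. FABP3, the muscle fatty acid-binding protein, was lower at −0.81 (SE 0.28, adjusted p = 0.0349) in 5 of 6 bears, but not without bear 1305 (0.117) or bear 1317 (0.133). CD36, the main fatty acid translocase of muscle, was at 566 ± 114 CPM in summer and 583 ± 116 in winter, and did not pass (0.04, SE 0.16, adjusted p = 0.852). FLT1, the receptor of VEGFB, did not pass (0.02, SE 0.15), nor did SLC27A1, a fatty acid transport protein (0.07, SE 0.14).

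The genes whose pattern was most like that of LPL and ANGPTL4 were looked up among 10345 genes with a symbol and a mean of at least 1 log2 CPM, as a description without a test. Over the 12 libraries, which share season, bear and scaling, GLUD1 (r = 0.966), TMEM120A (0.952), METTL7A (0.952), MSRB1 (0.951) and ELOVL5 (0.948) were most like LPL. For ANGPTL4 they were HAUS4 (0.945), ALDH2 (0.935), DHRS7 (0.926), SLC25A22 (0.926) and ZPR1 (0.920). With the season means taken out, the 5 most like LPL included ARSG (0.870), USP21 (0.826), GLUD1 (0.822) and AQP7 (0.813). For ANGPTL4 the order changed to TMEM250 (0.858), PHGDH (0.836), PDE1B (0.833), RTCA (0.832) and SLC25A22 (0.829) for ANGPTL4. GLUD1, glutamate dehydrogenase, was the gene found by both measures for LPL, and SLC25A22, a mitochondrial glutamate carrier, for ANGPTL4. None of the other 6 transcripts was among the 5 most like LPL, the nearest over the 12 libraries being VLDLR (r = 0.830).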

How the data were processed

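Stranded poly-A libraries of vastus lateralis RNA from 6 bears in both seasons were sequenced as single reads. The authors aligned the reads to the bear assembly ASM358476v1 and counted them per gene. The submitters' processing notes name TopHat2 2.1.1, Bowtie2 2.2.9, SAMtools 1.9 and featureCounts 1.6.2. The deposited values are raw counts, without normalization. Which lane a library was run on is not given by the labels, and effects of the lane were not tested.

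Only genes with a sum of at least 30 reads were kept. TMM-scaled counts were fitted with edgeR 4.0.16 in R 4.3.3 (glmQLFit and glmQLFTest, season as the only term), with Benjamini-Hochberg adjustment over 17290 genes. Log2 CPM used a prior count of 2. No sample was left out. The members and all gene lists were chosen with earlier results of these data known. Named were the members, up to 4 called genes with the largest change per list, the 5 genes most like LPL or ANGPTL4 and the 2 most abundant markers of each list. Other genes were named after their values were seen. A few list genes not found under their symbols were not used here, and some results for single genes are not reported here.

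The alternatives were a replicate block of the bear, DESeq2 1.42.0 with and without it, limma voom (limma 3.58.1), RLE, library totals, no filter, filterByExpr, each bear left out, stricter thresholds and, chosen after seeing the data, leaving out the summer library of bear 1316 with the winter library of bear 1511. The methods name the same animals in both seasons. Deviations from season means correlated at 0.0903 to 0.344 within a bear, against a median of −0.0634 and at most 0.142 over 30 pairs of unlike bears. The edgeR fits with and without the block, DESeq2 without it and limma voom were first tested on simulated counts, drawn without differences between bears. The other alternatives were not tested in this way. Intervals cover counting error only.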

Additional observations from a re-analysis of the deposited data

Results flagged for a closer look

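Among 80 groups of 6 libraries of a season, 8 held a library whose gap to its nearest neighbour was wide for the range of the group (Dixon's 95% limit for 6 values). Chance alone flags about 1 in 20 groups. None of the 8 was a season of the 7 transcripts of the lipase system. All values here are log2 CPM.

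In the summer library of bear 1316, fat genes were far above the other summer libraries. ADIPOQ was at 8.44 there and at 3.72 to 5.33 in the others, PLIN1, which coats lipid droplets, at 6.22 against 0.78 to 2.68, and CIDEC, another droplet protein, at 6.01 against 0.50 to 2.34. DGAT2 was at 7.99 against 2.38 to 4.34, and the log2 sum of the adipocyte markers at 11.32 against 10.61 to 10.75. The same library had the most LPL, ANGPTL4 and LMF2 of its season. Its LRP1 (6.097) was about level with that of the summer library of bear 1512 (6.102). Whether the markers and these transcripts share a source was not tested.

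The winter library of bear 1509 had SREBF1 at 2.57, where the other winter libraries had 4.79 to 5.59, and APOA1 at 4.60 against 3.18 to 3.68. MFSD2A was at −1.34 in the summer library of bear 1509 against −1.85 to −1.71 in the others, at no more than 7 reads per library.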

How the results depend on the processing

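Over 15 alternative fits and other thresholds, 1385 values were recomputed, of which 42 moved past the limits set (a count by over 1.5 times, an untested value by over 1 SD between bears), 40 lost a call and 1303 did neither. No called value turned direction, but LMF1, which was not called, turned from −0.10 to 0.02 without bear 1509, where GPIHBP1, also not called, went from −0.52 to −0.19. The sign of r between LPL and LMF1, LMF2, GPIHBP1 or LRP1 within a season, none of them past the test, turned when single bears were left out. Of the 50 called genes of the 6 lists, 39 kept their call in every alternative. The 11 that did not were ABHD6, APOM, ARNT, CANX, FABP3, LRP12, LRP6, NR3C1, NRP1, RXRB and SLC27A4. The number of list genes higher in winter, 12, was 7 with library totals and 6 with an adjusted p below 0.01 and a fold above 1.3 or below 0.77. Leaving out each bear in turn gave 7 to 12 higher, with the 7 without bear 1305, and 34 to 38 lower. Library totals moved the median of all genes to −0.08. The cause of these moves was not tested.

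With the bear as a replicate block, 14 list genes were higher and 38 lower, and the log2 fold change was −1.70 for LPL, 3.48 for ANGPTL4 and −2.62 for DGAT2. The replicate block took away none of the 50 calls and added LRP2 and LRP11. The adipocyte markers then had 0 genes higher and 4 lower and the fibroblast markers 10 lower, and the block changed no other count in the text. Receptors called lower were 4 with DESeq2 or library totals and 1 without bear 1317. The low summer counts of ANGPTL4 limit its fold change in single bears.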
